A study of Mus musculus with 6 samples.

Results

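The dual-specificity phosphatases that act on MAP kinases were described in cells of the mouse kidney glomerulus, as 9 genes taken by name: Dusp1, Dusp2, Dusp4, Dusp5, Dusp6, Dusp8, Dusp10, Dusp14 and Dusp16. All 9 had a row in each table, out of 28327 genes in the Drop-seq tables together and 49492 in the bulk tables. The glomerulus is the filter at the head of each nephron, built of podocytes, fenestrated capillary endothelium, mesangial cells and the parietal cells of its capsule. Drop-seq, which captures single cells with barcoded beads in droplets and counts each mRNA molecule once by its unique molecular identifier (UMI), was run as 4 libraries on dissociated glomerular cells fixed in 80% methanol. Bulk mRNA sequencing covered 1 library from 95 ng of RNA of sorted, methanol-fixed single cells of dissociated glomeruli and 1 library from 500 ng of RNA of whole isolated glomeruli that were live and unfixed. All animals were 8-week-old males of the outbred CD1 IGS strain, with no transgene or treatment named. The bulk pair therefore differs in dissociation, sorting, fixation and RNA input together, and these cannot be told apart. Nothing in the labels says that the 4 Drop-seq libraries came from separate animals, so the p-values below measure the spread between libraries, which may be technical.

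MAP kinases are switched on by phosphorylation of a threonine and a tyrosine in the activation loop, and dual-specificity phosphatases remove both phosphates. Dusp1, Dusp2, Dusp4 and Dusp5 encode nuclear enzymes whose genes are themselves induced by the kinases that they shut off, Dusp6 a cytoplasmic enzyme selective for ERK, and Dusp8, Dusp10 and Dusp16 enzymes that act mainly on JNK and p38. Dusp14 belongs to the small atypical enzymes that lack the MAP kinase binding domain. Many of these transcripts are short-lived and rise within minutes of growth factor or stress signals, as do the immediate-early transcription factors of the Fos, Jun and Egr families.

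The genes lie apart from each other, on 9 chromosomes. In the GENCODE vM21 annotation of GRCm38, Dusp1 spans chr17:26505590-26562128 on the minus strand and overlaps Ergic1 on the opposite strand, and Dusp10 spans chr1:184013302-184075636 on the plus strand and overlaps 1700056E22Rik on the opposite strand. The bulk libraries were made with a kit that keeps the strand, and the strand setting of the counting is not given in the sources used here. In bulk 1700056E22Rik held 87 reads in dissociated cells and 7 in whole glomeruli, against 6958 and 322 for Dusp10.

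Promoter sequence from RefSeq (GRCm38.p6, 250 bases before to 50 after the annotated start) was matched by symbol for 8 of the 9 genes. The 5 promoters below are shown because 3 of them carry a known response element of immediate-early genes and the other two belong to the genes with the largest difference in bulk. They are written 5′ to 3′ on the gene's strand, and capitals mark the cyclic AMP response element TGACGTCA in Dusp1 and Dusp8 and a pair of CArG boxes, the binding sequence of serum response factor, in Dusp5.
Dusp1, chr17:26508423-26508722, minus strand: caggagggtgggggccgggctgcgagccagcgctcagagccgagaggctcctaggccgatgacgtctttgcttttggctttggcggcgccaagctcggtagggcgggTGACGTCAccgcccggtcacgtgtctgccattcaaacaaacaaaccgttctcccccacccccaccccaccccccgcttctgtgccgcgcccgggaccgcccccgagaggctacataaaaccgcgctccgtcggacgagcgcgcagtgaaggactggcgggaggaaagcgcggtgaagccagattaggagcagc
Dusp5, chr19:53528895-53529194, plus strand: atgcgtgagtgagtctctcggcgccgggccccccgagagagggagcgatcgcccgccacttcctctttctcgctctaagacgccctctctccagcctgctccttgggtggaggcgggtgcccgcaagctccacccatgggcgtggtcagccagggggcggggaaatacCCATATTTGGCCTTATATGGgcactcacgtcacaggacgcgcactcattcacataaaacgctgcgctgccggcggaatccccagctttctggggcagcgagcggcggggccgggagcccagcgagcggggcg
Dusp8, chr7:142095235-142095534, minus strand: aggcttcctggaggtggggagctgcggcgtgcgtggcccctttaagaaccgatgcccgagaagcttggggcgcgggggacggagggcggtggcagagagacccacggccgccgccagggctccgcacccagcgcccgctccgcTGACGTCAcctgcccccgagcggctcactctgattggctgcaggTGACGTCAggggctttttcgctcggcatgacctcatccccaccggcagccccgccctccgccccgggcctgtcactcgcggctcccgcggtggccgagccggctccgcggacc
Dusp10, chr1:184034131-184034430, plus strand: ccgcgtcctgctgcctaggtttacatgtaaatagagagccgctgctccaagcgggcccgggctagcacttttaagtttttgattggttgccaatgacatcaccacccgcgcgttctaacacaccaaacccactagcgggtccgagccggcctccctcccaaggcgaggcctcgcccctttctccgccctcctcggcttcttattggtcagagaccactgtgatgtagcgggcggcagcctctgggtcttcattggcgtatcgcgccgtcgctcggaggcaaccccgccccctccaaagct
Dusp14, chr11:84068308-84068607, minus strand: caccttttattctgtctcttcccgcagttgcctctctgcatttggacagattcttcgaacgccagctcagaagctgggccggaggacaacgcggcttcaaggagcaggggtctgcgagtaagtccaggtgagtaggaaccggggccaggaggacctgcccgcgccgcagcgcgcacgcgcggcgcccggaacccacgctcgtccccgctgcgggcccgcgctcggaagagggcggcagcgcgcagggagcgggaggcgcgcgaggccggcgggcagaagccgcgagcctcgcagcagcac
Letters were searched on both strands for TGACGTCA, for the AP-1 element TGACTCA, for the CArG box, for the ETS element CCGGAAGT, for the EGR element GCGTGGGCG and for TATAAA. TGACGTCA stood once in the Dusp1 promoter, at base -143 from the start, and at -107 and -63 in that of Dusp8, and it was present in 1.88% of 27025 RefSeq promoters of the same length. The CArG boxes of Dusp5, ccatatttgg and ccttatatgg, began at -82 and -72 and abutted, and 1.57% of promoters held at least 1 such box. None of the searched letters was found in the windows of Dusp2, Dusp6, Dusp10, Dusp14 or Dusp16. A match is a description of the letters only, and one genome start was used for each gene. The RefSeq windows of Dusp1 and Dusp10 lie inside the GENCODE spans given above, away from the 5′ ends of those spans.

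The Drop-seq libraries held 3528543 to 6411775 UMIs in 15465 barcodes, of which 13993 passed the limits of 300 genes or more and no more than 20% mitochondrial UMIs. Of these, 3 barcodes occurred in more than 1 library. Clusters made without the 9 genes were named from marker genes. Of the kept cells, 10597 were podocyte-like, 1847 endothelial-like, 922 tubular-like, 323 mural-like (led by Ren1, Acta2 and Rgs5), 251 parietal epithelial-like and 53 immune-like. The parietal epithelial-like cluster is the least secure name, with 1 marker of its own and 1 of smooth muscle among its 10 leading genes, a relative marker level of 0.418 for its own list against 0.549 for podocytes, 4 of 7 markers at 3 or more UMIs and the 9 podocyte markers summing to 10590 to 16520 CPM in its libraries, against 20510 to 24160 CPM in podocyte-like cells (CPM, UMIs of a gene scaled to a total of 1e6 per library and type). The parietal epithelial markers summed to 410.8 to 772.5 CPM in parietal epithelial-like and to 481 to 589 CPM in tubular-like libraries, so they did not separate these types. The tubular-like cluster led by Atp6v1g3, Aqp2 and Car2 had a relative level of 0.615 for that list, against 0.496 for the tubular one. Podocyte transcripts were present in every type. The 9 podocyte markers summed to 3828 to 5078 CPM over the libraries for the endothelial-like, 2590 to 4791 CPM for the mural-like and 1284 to 2116 CPM for the tubular-like type. Tubular-like cells had a median of 14.4% mitochondrial UMIs, against 4.27% in podocyte-like cells.

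Levels are given as CPM of each library's summed cells of a type, and differences as log2 folds of a type over the mean of the other 4 types, fitted with library as a block and called where edgeR's adjusted p was under 0.05. Of the 9 genes, 7 had enough counts for the fit among 7667 genes tested. Dusp2 and Dusp4 did not, and are described by their counts.

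**Figure D1:**
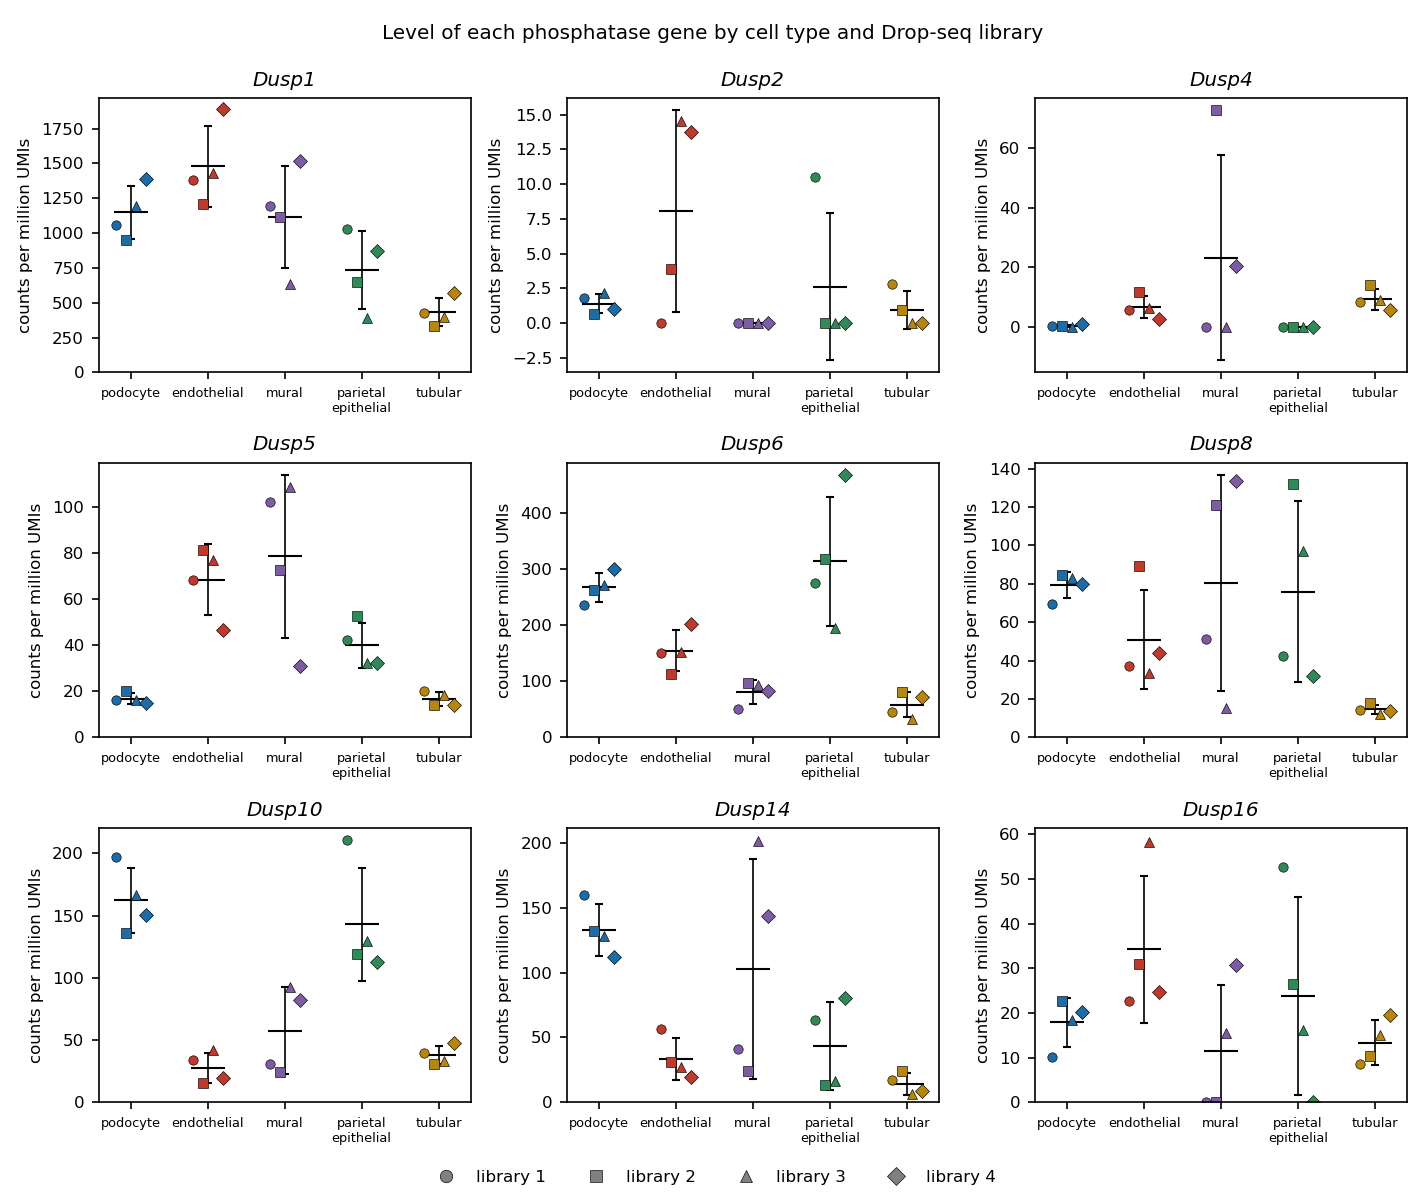
Level of each of the 9 genes in CPM (vertical axis, linear, a separate scale per gene) in 5 cell types, with 1 symbol per Drop-seq library and the mean and SD of the 4 libraries in black. Dusp10 and Dusp14 stood at 112 CPM or more in every podocyte-like library and at 56.8 CPM or less in every endothelial-like one, and Dusp5 had the opposite order.

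In podocyte-like cells 5 of the 7 tested genes were higher than in the other types and 1 was lower. Among all genes tested 25.0% were higher and 19.4% lower, 44.3% in either direction. The 5 were Dusp14, Dusp10, Dusp6, Dusp8 and Dusp1, and the lower one was Dusp5. Endothelial-like cells had Dusp1, Dusp5 and Dusp16 higher and Dusp10 and Dusp14 lower, where 27.5% of all genes were higher and 19.8% lower, 47.4% in either direction. Mural-like cells had Dusp5 and Dusp14 higher and Dusp6 lower, beside 11.9% of all genes higher and 8.63% lower, 20.5% in either direction. Parietal epithelial-like cells had Dusp6 and Dusp10 higher and Dusp1 lower, beside 7.97% of all genes higher and 3.43% lower, 11.4% in either direction. Tubular-like cells had 6 of 7 lower and none higher, where 25.4% of all genes were lower and 26.9% higher, 52.3% in either direction.

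**Figure D2:**
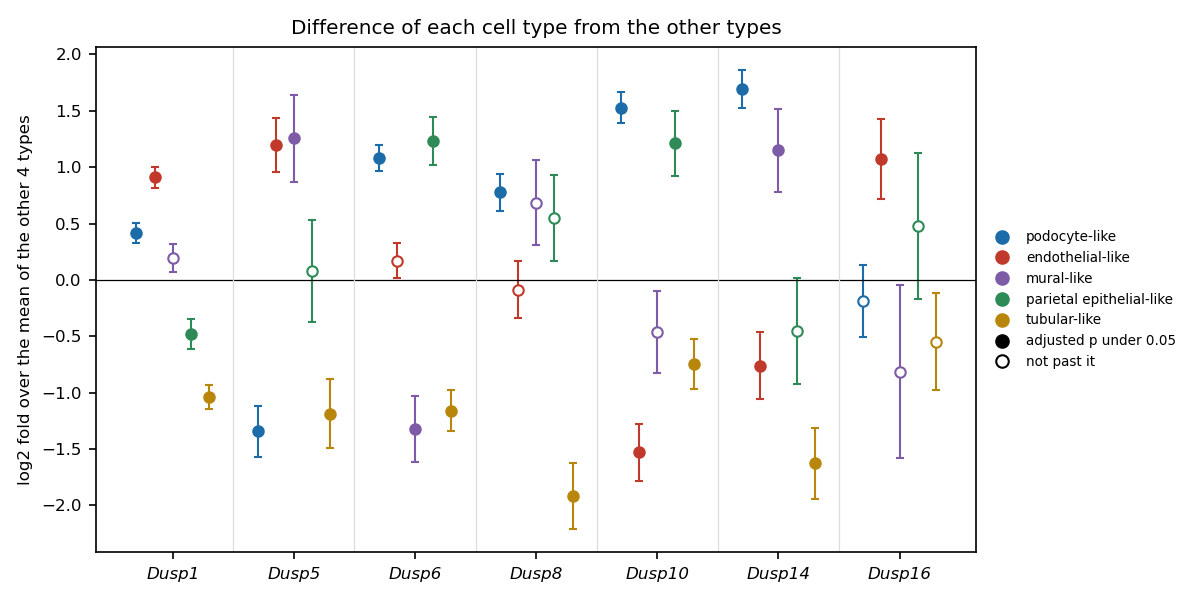
Log2 fold of each cell type over the mean of the other 4 types (vertical axis) for the 7 genes tested, with the standard error as bars, filled where the adjusted p was under 0.05. The tubular-like points lie below 0 for every gene, and Dusp14 and Dusp10 have the highest podocyte-like points at 1.69 and 1.53.

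Dusp1, the inducible nuclear phosphatase that acts on p38, JNK and ERK, was the most abundant of the 9 by length in bulk and had the most UMIs. Its level in endothelial-like cells was 1384, 1209.9, 1429 and 1892 CPM in libraries 1 to 4. Podocyte-like cells of the same libraries had 1061, 952, 1192 and 1389 CPM, and tubular-like cells 429.5, 335, 398 and 571 CPM. Every endothelial-like library was above the podocyte-like cells of the same library, and tubular-like cells did not overlap with either type. Mural-like cells ranged from 636 to 1519 CPM and parietal epithelial-like cells from 389 to 1032 CPM, overlapping several types. The log2 fold over the other types was 0.91 ± 0.09 (SE) in endothelial-like cells with an adjusted p of 2.35e-14, 0.42 ± 0.09 in podocyte-like cells with 5.88e-05, and -1.04 ± 0.11 in tubular-like cells with 2.77e-14. In parietal epithelial-like cells it was -0.48 ± 0.14 with an adjusted p of 0.00803, but only 3 of 4 libraries were lower, and without library 3 the value was -0.31 with an adjusted p of 0.155, without library 4 -0.40 with 0.116. By DESeq2 the podocyte-like fold was 0.29 with an adjusted p of 0.0575, so that call was lost. With low-count genes kept it was 0.84, and the podocyte-like fold of every tested gene rose by a similar amount. Dusp6 went from 1.08 to 1.51 and Dusp5 from -1.34 to -0.92. The small podocyte-like Dusp1 fold is thus of the size of that common shift, whose cause was not tested. Down the order of mean levels, endothelial-like (1479 CPM) and podocyte-like cells (1149 CPM) differed by 0.39 ± 0.11 on the log2 scale with an adjusted p of 0.00137, podocyte-like and mural-like cells (1117 CPM) did not differ beyond their spread, mural-like exceeded parietal epithelial-like cells (734 CPM) by 0.54 ± 0.17, and those exceeded tubular-like cells (433 CPM) by 0.45 ± 0.16. The step from endothelial-like to podocyte-like cells was 0.08 with an adjusted p of 0.78 when genes with low counts were kept, and the last step was -0.03 without library 1.

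Dusp5, a nuclear phosphatase selective for ERK, was higher in endothelial-like and mural-like cells. Endothelial-like cells had 68.2, 81.4, 77.1 and 46.8 CPM and mural-like cells 102, 72.7, 109 and 30.8 CPM in libraries 1 to 4. Podocyte-like cells had 16.2, 19.97, 16.4 and 14.8 CPM and tubular-like cells 19.9, 14.1, 18.2 and 13.9 CPM. The endothelial-like and mural-like libraries did not overlap with the podocyte-like or tubular-like ones. Its fold on the log2 scale was 1.20 ± 0.24 in endothelial-like cells (adjusted p 1.36e-05), 1.25 ± 0.39 in mural-like cells (0.0122), -1.34 ± 0.23 in podocyte-like cells (4.5e-07) and -1.19 ± 0.31 in tubular-like cells (0.000665). The mural-like value rests on 23 UMIs and fell short of the threshold without library 1 (1.10, adjusted p 0.158) and without library 3 (1.08, 0.112). The tubular-like value fell short without library 2 (-0.87, adjusted p 0.072). In parietal epithelial-like cells, at 32.2 to 52.9 CPM, the fold was 0.08 ± 0.45. No neighbouring pair in its order of levels differed past the threshold.

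Dusp2, known from activated lymphocytes and macrophages, and Dusp4, an inducible nuclear phosphatase, were near the limit of detection. Dusp2 had 17 UMIs in podocyte-like cells, 13 in endothelial-like, 2 in tubular-like and 1 in parietal epithelial-like cells, and none of 300882 UMIs in mural-like cells, where 3 UMIs would be 9.97 CPM. Dusp4 had 23 UMIs in tubular-like cells and 9 in the endothelial-like type, and the mural-like and podocyte-like types had 5 each. In mural-like cells Dusp4 was at 0, 72.7, 0 and 20.5 CPM, the highest mean of the types, with a pooled level of 16.6 CPM (exact Poisson interval 5.40 to 38.8). Its level was 8.53, 14.1, 9.10 and 5.57 CPM in tubular-like cells of libraries 1 to 4, against 0.305, 0.227, 0 and 1.01 CPM in podocyte-like cells. The mural-like interval contains the pooled tubular-like level of 10.9 CPM. The lowest tubular-like library lay above the highest podocyte-like one, and exact Poisson intervals of the pooled levels, which cover counting error only, were 6.94 to 16.4 CPM in tubular-like and 0.125 to 0.90 CPM in podocyte-like cells. Among the tubular clusters Dusp4 averaged 8.10 ± 3.27 CPM in the cluster led by Pvalb, Fxyd2 and Sfrp1 and 18.5 ± 13.4 CPM, on 5 UMIs, in the one led by Atp6v1g3, Aqp2 and Car2 (SD, n = 4 libraries).

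Dusp6, the cytoplasmic ERK phosphatase and a common readout of ERK activity, was higher in podocyte-like and parietal epithelial-like cells. Podocyte-like cells had 236, 262, 271 and 299.6 CPM and parietal epithelial-like cells 274, 317, 194 and 467 CPM in libraries 1 to 4. Endothelial-like cells had 151, 112, 152 and 201 CPM, mural-like cells 51.2 to 96.9 CPM and tubular-like cells 33.4 to 80.0 CPM. All podocyte-like libraries were above all endothelial-like, mural-like and tubular-like ones. The log2 fold was 1.08 ± 0.11 in podocyte-like cells (adjusted p 6.66e-14), 1.23 ± 0.21 in parietal epithelial-like cells (2.85e-06), -1.32 ± 0.29 in mural-like cells, on 23 UMIs (0.000252), and -1.16 ± 0.18 in tubular-like cells (4.05e-08). The endothelial-like fold was 0.17 ± 0.16 and not past the threshold, but 0.92 with an adjusted p of 0.000393 when only cells with at least 500 genes were used and -0.60 with 5.7e-05 against all other cells summed. Both alternatives change the comparator. The setting with at least 500 genes had no parietal epithelial-like type, which had the highest mean Dusp6 (313 CPM), so 0.92 is over the remaining types. In the order of levels, parietal epithelial-like and podocyte-like cells did not differ beyond their spread, podocyte-like exceeded endothelial-like cells by 0.73 ± 0.13 (adjusted p 2.04e-06), and endothelial-like exceeded mural-like cells by 1.19 ± 0.32 (0.00224). Against all other cells summed, 10597 of which are podocyte-like, the parietal epithelial-like fold was 0.29 with an adjusted p of 0.599. Podocyte markers summed to more in the parietal epithelial-like than in the endothelial-like, mural-like or tubular-like cells, and their part in the Dusp6 and Dusp10 levels there was not tested.

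Dusp10, a phosphatase of JNK and p38, was higher in podocyte-like and parietal epithelial-like cells and lower in endothelial-like and tubular-like cells. Podocyte-like cells had 197, 136, 166 and 150.5 CPM and parietal epithelial-like cells 211, 119, 129.6 and 113 CPM. Endothelial-like cells had 34.1, 15.5, 41.7 and 19.3 CPM, tubular-like cells 31.1 to 47.3 CPM and mural-like cells 24.2 to 93.1 CPM. The first pair of types did not overlap with the other 3. Its fold was 1.53 ± 0.14 in podocyte-like cells (adjusted p 3.97e-17), -1.53 ± 0.25 in endothelial-like cells (2.26e-07) and -0.75 ± 0.23 in tubular-like cells (0.0035), all on the log2 scale. In parietal epithelial-like cells the fold was 1.21 ± 0.29 (adjusted p 0.00106), on 44 UMIs, and without library 1 it was 0.75 with an adjusted p of 0.237. Parietal epithelial-like exceeded mural-like cells, their neighbour in the order, by 1.34 ± 0.42 (adjusted p 0.0148), a step that was lost without library 1 (0.58, adjusted p 0.572) and without library 2 (1.17, 0.0681).

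Dusp8 stood at 69.6, 84.7, 83.2 and 80.0 CPM in podocyte-like cells of libraries 1 to 4, against 14.2, 17.9, 12.1 and 13.9 CPM in tubular-like cells. Dusp8 encodes another phosphatase of JNK and p38. The podocyte-like libraries were all above the tubular-like ones, whereas mural-like cells ranged from 15.5 to 133 CPM, parietal epithelial-like cells from 32.2 to 132 CPM and endothelial-like cells from 33.3 to 89.2 CPM. The log2 fold was 0.78 ± 0.17 in podocyte-like cells (adjusted p 6.13e-05) and -1.92 ± 0.29 in tubular-like cells (2.38e-08), and no other type passed the threshold. Endothelial-like exceeded tubular-like cells, the lowest pair in the order, by 1.47 ± 0.35 (adjusted p 0.000164).

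Dusp16 was higher in endothelial-like cells, with 22.7, 31.0, 58.3 and 24.8 CPM, against 10.1, 22.7, 18.5 and 20.2 CPM in podocyte-like cells and 8.53 to 19.5 CPM in tubular-like cells. Library 3 was the highest of the endothelial-like ones, and the endothelial-like and podocyte-like libraries met at 22.7 CPM. The fold was 1.07 ± 0.36 (adjusted p 0.00987), and without library 3 it was 0.66 with an adjusted p of 0.269. No neighbouring pair in its order of levels differed past the threshold.

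Dusp14, the atypical enzyme, had the highest podocyte-like fold of the 7. Podocyte-like cells had 159.9, 132, 128 and 112 CPM, against 56.8, 31.0, 27.1 and 19.3 CPM in endothelial-like cells and 17.1, 24.5, 6.07 and 8.35 CPM in tubular-like cells. Mural-like cells had 40.9 and 24.2 CPM in libraries 1 and 2 and 202 and 144 CPM in libraries 3 and 4. The podocyte-like libraries did not overlap with the endothelial-like, tubular-like or parietal epithelial-like ones, and the mural-like libraries lay on both sides of them. Its log2 fold was 1.69 ± 0.17 in podocyte-like cells (adjusted p 6.67e-15), -1.63 ± 0.32 in tubular-like cells (6.36e-06) and -0.76 ± 0.30 in endothelial-like cells (0.0281), where 3 of 4 libraries were lower. The endothelial-like call was lost without library 2 (-0.66, adjusted p 0.0848), without library 3 (-0.65, 0.095) and without library 4 (-0.46, 0.283). In mural-like cells the fold of 1.15 ± 0.37 (adjusted p 0.0173) was higher in only 2 of 4 libraries, and without library 3 it was 0.59 with an adjusted p of 0.409, without library 4 0.80 with 0.274.

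Of the 28 neighbouring pairs of types over the 7 genes, 7 differed past the threshold. Neighbours were taken from each gene's own order of levels in these data, which picks pairs with small gaps. The shares that follow are for all genes in a fixed pair, neighbours in level or not, and are not a like measure. Of all genes, 58.7% were called between podocyte-like and endothelial-like, 16.5% between mural-like and parietal epithelial-like, 33.0% between parietal epithelial-like and tubular-like, 25.0% between endothelial-like and mural-like and 61.4% between endothelial-like and tubular-like cells, the pairs with a call. In the other pairs these shares were 32.5% for podocyte-like with mural-like, 8.75% for podocyte-like with parietal epithelial-like, 58.3% for podocyte-like with tubular-like, 28.2% for endothelial-like with parietal epithelial-like and 38.2% for mural-like with tubular-like cells. Without the library block 4 of the pairs were called. For Dusp5 in podocyte-like over tubular-like, Dusp6 in mural-like over tubular-like and Dusp8 in mural-like over podocyte-like cells, the fitted fold had the opposite sign to the order of the mean CPM, at -0.12 ± 0.32, -0.13 ± 0.36 and -0.07 ± 0.34.

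The calls in tubular-like cells were fewer when cells with much mitochondrial RNA were left out. With at most 10% mitochondrial UMIs per cell, 198 tubular-like cells were left in place of 922, and Dusp5, Dusp8 and Dusp16 no longer passed the filter on low counts. Of the 4 genes still tested, Dusp1 was called lower in tubular-like cells (-0.90, adjusted p 0.000397). Dusp14 (-0.21, adjusted p 0.808), Dusp6 (-0.62, 0.118) and Dusp10 (-0.67, 0.228) were not. The part of mitochondrial content in these levels was not tested.

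Within podocyte-like cells the genes varied between clusters that had been made without them. Dusp1 averaged 894 ± 99.8 to 1331 ± 423 CPM over the 9 podocyte-like clusters (SD, n = 4 libraries). Dusp10 averaged 64.8 ± 32.4 CPM in the cluster led by Gm23935, Lars2 and Gm15564, 92.0 ± 31.6 CPM in the one led by Kcnj12, Hist1h1e and Metrnl and 111 ± 18.4 CPM in the one led by Gm26802, Rtn2 and Col1a2. The other 6 clusters had 153 to 199.7 CPM. The same 3 clusters had the lowest mean Dusp6, at 178, 165 and 182 CPM, against 256 to 334 CPM elsewhere, and the lowest Dusp14, at 66.3, 60.6 and 62.3 CPM, against 111 to 179 CPM elsewhere. Dusp1 in the 3 clusters, at 1021, 1159 and 1299 CPM, lay inside the range of the others. These are descriptions of clusters with no test, and the 3 clusters had median depths of 751.5, 690.0 and 1287 UMIs per cell and 6.30%, 5.54% and 4.73% mitochondrial UMIs.

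Endothelial-like cells were split into 4 subclusters. One of 117 cells was led by Mgp, Igf2 and Fbln5 and carried all 6 arterial markers, one of 1080 cells had the capillary markers Ehd3 and Kdr with hemoglobin transcripts among its leading genes, one of 446 cells was led by Tspan8, Calca and Ifi27l2a, and one of 204 cells had the podocyte markers Clic3 and Cdkn1c among its leading genes. Only Dusp1 and Dusp6 passed the filter among 2072 genes. Both were called higher in the arterial subcluster, where 15.5% of all genes were called in either direction. Dusp6 was at 568, 226, 804 and 524 CPM there in libraries 1 to 4, against 116, 37.2, 62.7 and 133 CPM in the capillary subcluster. Each arterial library lay above every capillary one. The log2 fold over the mean of the other 3 subclusters was 1.85 ± 0.30 (adjusted p 1.34e-06) in the arterial and -1.60 ± 0.25 (3.04e-07) in the capillary subcluster, where 27.5% of genes were called. Dusp1 was at 1837 to 2159.6 CPM in the arterial subcluster, at 1430.2 to 2162 CPM in the capillary one and at 464 to 1426 CPM in the one led by Tspan8. Its folds were 0.63 ± 0.15 (adjusted p 0.00112), 0.37 ± 0.11 (0.00781) and -0.99 ± 0.13 (1.18e-08) in that order, with 15.7% of genes called in the last. With low-count genes kept the arterial Dusp1 fold was 0.23 with an adjusted p of 0.808. In the podocyte-led subcluster, where 39.6% of genes were called, neither gene was.

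Dusp5, Dusp10 and Dusp14, too low for that test, were uneven over the subclusters. Dusp5 was at 116, 149, 125 and 69.4 CPM in the capillary subcluster, against 47.6 to 57.4 CPM in the arterial one, which rests on 5 UMIs, and at most 13.8 CPM in the one led by Tspan8. Dusp10 averaged 90.9 ± 72.7 CPM and Dusp14 124 ± 46.2 CPM in the podocyte-led subcluster (SD, n = 4 libraries). Dusp10 averaged 8.30 to 20.3 CPM and Dusp14 0 to 12.6 CPM in the other 3. Of the 43 Dusp10 UMIs in endothelial-like cells 30 came from that subcluster, and of the 48 Dusp14 UMIs 37. Dusp8, also too low, averaged 43.1 to 56.2 CPM in all 4.

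**Figure D3:**
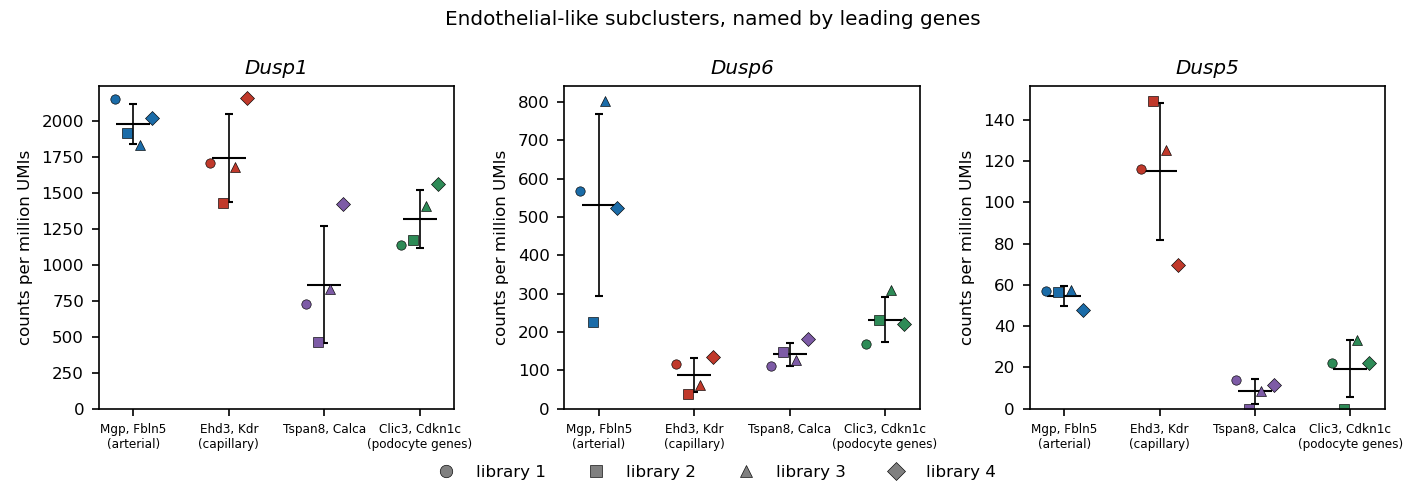
Level of Dusp1, Dusp6 and Dusp5 (CPM, linear axes from 0) in the 4 endothelial-like subclusters, with 1 symbol per library and the mean and SD in black. Dusp6 is at 226 to 804 CPM in the subcluster with arterial markers and at 37.2 to 133 CPM in the one with capillary markers, whereas Dusp5 averages 115 CPM in the capillary one.

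Shares of cells with at least 1 UMI were compared with every cell thinned to 500 UMIs. Dusp1 was found in 45.5 ± 4.81% of endothelial-like, 38.0 ± 4.62% of podocyte-like, 34.4 ± 6.72% of mural-like, 25.6 ± 7.96% of parietal epithelial-like and 18.6 ± 2.94% of tubular-like cells (SD, n = 4 libraries). Dusp6 was found in 13.3 ± 7.65% of parietal epithelial-like and 11.0 ± 1.20% of podocyte-like cells, against 2.60 ± 1.90% of tubular-like cells. Dusp10 was found in 9.14 ± 3.93% of parietal epithelial-like, 7.14 ± 1.20% of podocyte-like and 1.19 ± 0.54% of endothelial-like cells, the reverse of its mean levels in the parietal epithelial-like and podocyte-like types. Dusp16 in parietal epithelial-like cells had the lowest share of these 5 types, 0.305 ± 0.61%, and on 8 UMIs the second-highest mean level. For scale, Umod, a tubular gene, was found in 0.677% of podocyte-like and 1.02% of endothelial-like cells at the same depth. Thinning left out 669 podocyte-like, 378 endothelial-like, 45 mural-like, 20 tubular-like and 16 parietal epithelial-like cells that were shallower, and without it Dusp1 was found in 57.8% of podocyte-like cells.

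Between single podocyte-like cells Dusp1 went with Fos. At 500 UMIs per cell, Dusp1 was found in 39.7 ± 4.88% of the 9306 cells with a Fos UMI and in 12.0 ± 3.98% of the 622 cells without one (SD, n = 4 libraries). The difference was 20.9, 27.6, 29.9 and 32.6 percentage points in libraries 1 to 4. It was 21.3 ± 1.96 points for Jun and 18.0 ± 2.71 points for Egr1, higher in 4 of 4 libraries for both, and 3.49 ± 4.55 points for Atf3, higher in 3 of 4. Dusp6 was found in 11.4 ± 1.30% of cells with and 4.58 ± 1.02% of cells without a Fos UMI, and was higher in 4 of 4 libraries with each of Fos, Jun, Egr1 and Atf3. Of 8240 genes found in 0.5 to 50% of these cells, 9.05% were higher in 4 of 4 libraries with Fos, 8.47% with Jun, 7.4% with Egr1 and 8.54% with Atf3. Dusp10, Dusp14 and Dusp8 were higher in 4 of 4 libraries with Atf3, by 2.90 ± 0.71, 1.99 ± 0.70 and 1.02 ± 0.75 points. All 3 stayed higher in 4 of 4 libraries with Atf3 at 800 UMIs per cell. Other differences also had the same sign in all 4 libraries at 500 UMIs. Dusp14 was higher with Fos by 1.82 ± 1.05 points, Dusp10 with Jun by 1.17 ± 1.16 points, Dusp16 with Atf3 by 0.43 ± 0.20 points, Dusp5 with Fos, Jun and Egr1 by 0.18 to 0.71 points and Dusp2 with Fos by 0.09 points. Dusp14 was lower with Jun by -1.70 ± 0.32 points and Dusp16 with Fos by -1.02 ± 1.11 points, where 6.86% of genes were lower in 4 of 4 libraries with Jun and 8.36% with Fos. Neither decrease held in all 4 libraries at the other depths. Dusp14 differed with Jun by -0.36 ± 1.70 points at 800 UMIs, higher in 1 of 4 libraries, and by 5.56 ± 1.95 points not thinned, where 56.6% of genes were higher in all 4. Dusp16 differed with Fos by 0.37 ± 1.28 points at 800 UMIs, higher in 2 of 4. At 800 UMIs Dusp5 with Jun and Dusp2 with Fos were again higher in all 4 libraries, and the other 5 of these increases were not. At that depth Dusp5 was found in 1.31% of cells with a Jun UMI and in 0% of the 344 without, in every library. At 500 UMIs it was found in 0% of cells without a Fos UMI in libraries 1, 3 and 4. These directions of Dusp5 were therefore nearly fixed beforehand, and no conclusion is drawn from them. Dusp2 was found in 0.08% of podocyte-like cells at 500 UMIs, below the 0.5 to 50% range of the background genes. It was found in 0% of the few cells without a Fos UMI at both depths. Its direction with Fos was therefore nearly fixed beforehand, and no conclusion is drawn from it. An exact two-sided sign-flip permutation test over 4 libraries cannot go below 0.125, the value reached by every difference with the same sign in all 4, so none of these reached significance.

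**Figure D4:**
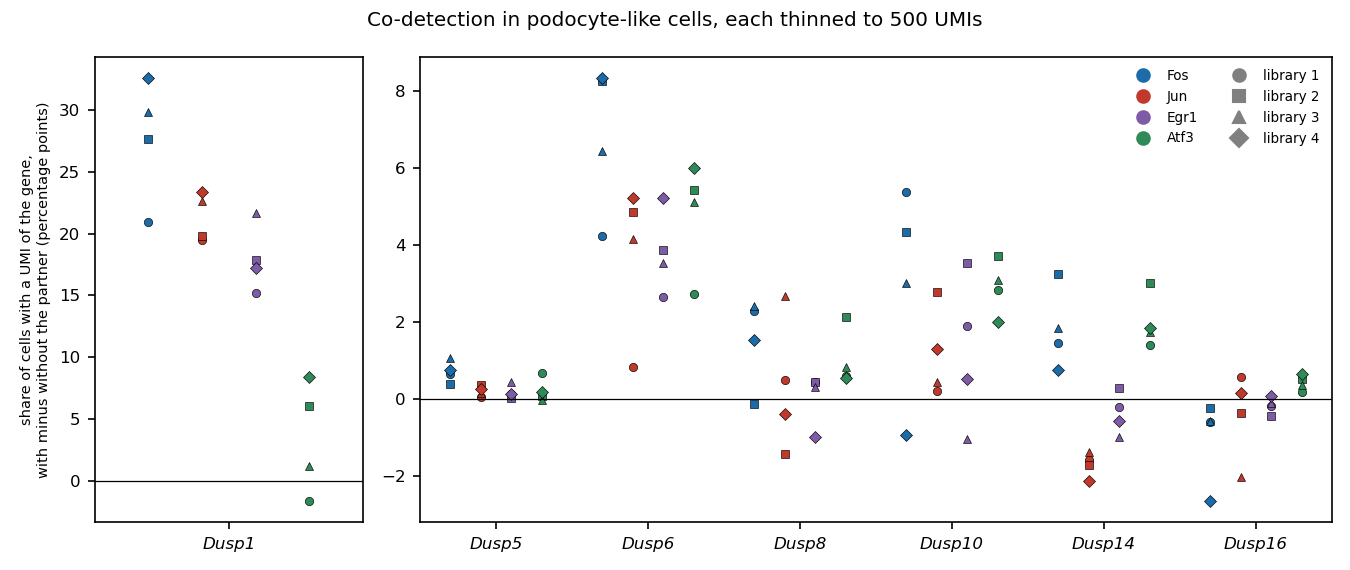
Share of podocyte-like cells with a UMI of each gene, in cells with minus cells without a UMI of Fos, Jun, Egr1 or Atf3 (percentage points, vertical axis, a wider scale for Dusp1), each cell thinned to 500 UMIs and 1 symbol per library. Dusp1 differs by 20.9 to 32.6 points for Fos.

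Bulk sequencing set dissociated cells beside whole glomeruli, with 24555600 and 28407300 reads in genes and 1 library each, so there is no test and intervals cover counting error only. In bulk, fewer cells of a type and less RNA per cell cannot be told apart. Of the 8 genes with at least 100 reads, 6 were more than 2-fold higher in dissociated cells and 1 was lower, where 10.6% of 12692 genes were higher and 19.1% lower, 29.7% in either direction. The median log2 fold of all those genes was -0.02, and without TMM scaling it moved to -0.32.

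Dusp14 had 3117 reads in dissociated cells, against 138 in whole glomeruli, a fold of 31.7 (95% interval 27.2 to 38.5). Dusp10 had 6958 reads in dissociated cells, against 322 in whole glomeruli, a fold of 30.6 (27.6 to 34.6). Dusp5 had 984 against 180 reads, a fold of 7.72 (6.65 to 9.20). These 3 were the least abundant of the 8 in whole glomeruli, with 10.5, 15.7 and 10.8 TPM (reads per length, scaled to a total of 1e6), and had 236, 336.5 and 58.5 TPM in dissociated cells. Dusp6 was 4.26-fold, Dusp8 3.09-fold and Dusp1 2.80-fold higher in dissociated cells. Dusp1 was the most abundant in both, with 2609 TPM in dissociated cells and 1339 TPM in whole glomeruli. Dusp16 was 1.69-fold higher (1.59 to 1.80). Dusp2 had 51 reads in dissociated cells and 34 in whole glomeruli, too few to be counted.

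Dusp4 went the other way, with 98 reads in dissociated cells, against 581 in whole glomeruli, a fold of 0.244 (0.192 to 0.299). Its level was 5.26 TPM in dissociated cells and 31.4 TPM in whole glomeruli. The markers of the cell types also differed between both bulk libraries. Of the podocyte markers 7 of 9 were more than 2-fold higher in dissociated cells, with a median log2 fold of 1.09, and 6 of 7 immune markers were. Lower were all 5 mesangial markers, with a median of -5.09 and a summed level of 181 CPM in dissociated cells and 2965 CPM in whole glomeruli, all 6 arterial markers, 5 of 8 endothelial markers and 3 of 13 tubular markers. One endothelial and 1 tubular marker were higher. The tubular median was -0.22, and 19.1% of all genes were lower. Also lower were 3 of 5 capillary, 2 of 5 smooth muscle and renin and 3 of 4 red blood cell markers. Of 6 parietal epithelial markers 2 were higher and 1 lower. The part of cell composition in the differences of the phosphatase genes was not tested.

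**Figure D5:**
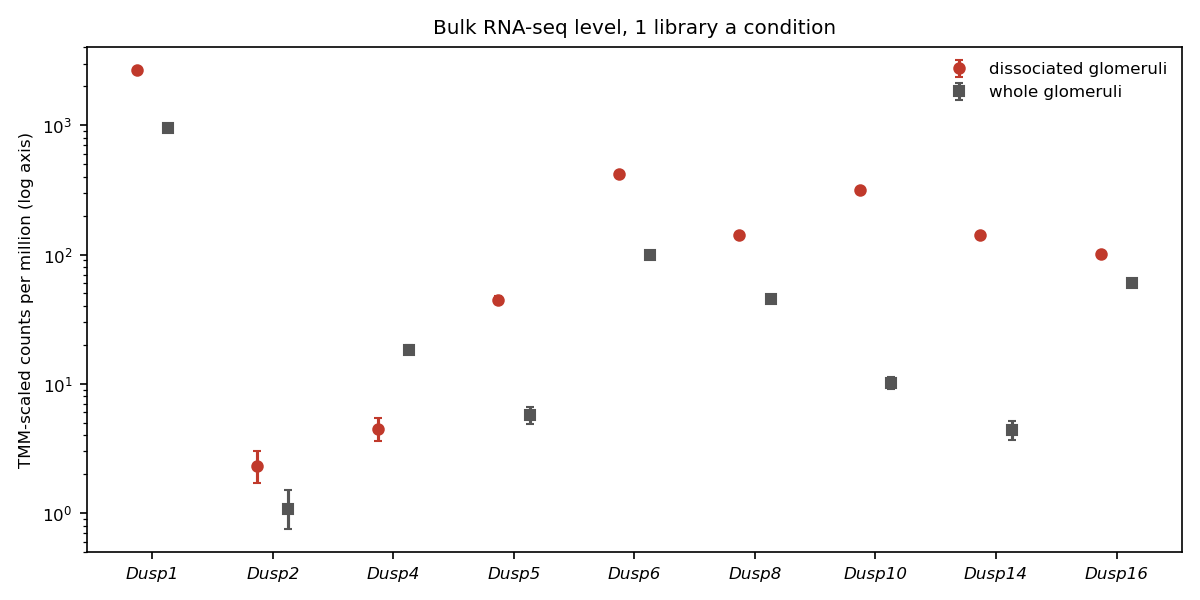
TMM-scaled CPM of the 9 genes in bulk RNA-seq (log axis) of dissociated cells (left of each pair) and whole glomeruli (right), with 95% Poisson intervals of the counts that are mostly smaller than the symbols. Dusp10 is at 315 and 10.2 CPM and Dusp14 at 141 and 4.37 CPM, and Dusp4 is the only gene with the lower symbol in dissociated cells.

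The Drop-seq libraries, also of dissociated and fixed cells, had 127 ± 24.2 CPM of Dusp10 and 101 ± 17.5 CPM of Dusp14 over all barcodes (SD, n = 4). Counts of 3′ tags and of whole transcripts differ in their scale, and no comparison was made between them. The Drop-seq mean of Dusp4 over all barcodes was 2.54 ± 0.96 CPM and that of Dusp16 18.6 ± 4.91 CPM.

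The other genes of the pathway were described from 4 lists. Of 32 immediate-early genes, 24 were more than 2-fold higher in bulk dissociated cells than in whole glomeruli and none lower, with a median log2 fold of 2.88, where 10.6% of all genes were higher and 19.1% lower. Egr2 had 2661 reads in dissociated cells and 15 in whole glomeruli, and Atf3 90426 and 1588. Of 36 MAP kinase cascade genes, with a median of 0.03, 4 were higher and 6 lower, shares near those of all genes. The 4 were Mapk6, Map2k3, Map3k2 and Fgfr1, and the lower ones included the epidermal growth factor receptor gene Egfr and the p38 kinase gene Mapk11. Feedback inhibitors of receptor signalling had 1 of 12 higher, Errfi1, and 4 lower, Spry4 (log2 fold -2.89), Spred3, Spred1 and Spry2. Among 15 other dual-specificity phosphatases Dusp18 was higher (1.85) and Dusp7 (-1.99), Ssh2, Ssh1 and Dusp26 were lower.

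By cell type, the cytoplasmic ERK phosphatase Dusp7 was higher in endothelial-like cells by 3.49 ± 0.43 on the log2 scale (adjusted p 4.06e-11), and Dusp15 was higher in podocyte-like cells by 1.80 ± 0.30, in 4 of 4 libraries each. Dusp7 was low, with an average log2 CPM of 3.31 over all sums, below the 4.56 of Dusp16, the lowest tested member. Dusp3 was higher in podocyte-like, endothelial-like (0.65 ± 0.10) and parietal epithelial-like cells (0.51 ± 0.14) and lower in tubular-like cells (-1.63 ± 0.12). Of 6 other dual-specificity phosphatases tested, 4 were higher and 1 lower in endothelial-like cells, and 2 higher and 1 lower in podocyte-like cells. In endothelial-like cells 27.5% of all genes were higher and 19.8% lower, in podocyte-like cells 25.0% and 19.4%. Spry4, whose product inhibits ERK signalling, was higher in mural-like (4.83 ± 0.66) and endothelial-like cells (4.37 ± 0.48), and Spry2 was higher in mural-like (3.37 ± 0.26) and lower in podocyte-like cells (-2.05 ± 0.30), in the same direction in all 4 libraries. Spry4 was also low, at an average log2 CPM of 3.83. The sizes of the Spry4 and Dusp7 folds are therefore uncertain. Of 30 immediate-early genes tested, 26 were lower and 1 higher in tubular-like cells, with a median log2 fold of -1.16, against -0.05 for all genes, of which 25.4% were lower and 26.9% higher. The same list had 18 higher and 7 lower in podocyte-like cells, and 14 higher and 3 lower in parietal epithelial-like cells, where 7.97% and 3.43% of all genes were. It was mixed in the endothelial-like type, with 14 higher and 10 lower, and in the mural-like type, with 13 higher and 9 lower, beside 11.9% of all genes higher and 8.63% lower. Of 27 MAP kinase cascade genes 11 were higher and 1 lower in endothelial-like cells, 3 higher and 11 lower in tubular-like cells. The podocyte-like type had 6 of them higher and 5 lower, the mural-like type 3 higher and 0 lower, and the parietal epithelial-like type 0 in either direction.

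Over the 20 profiles of 5 types in 4 libraries, which share libraries and depths, the genes whose log2 CPM ran closest to Dusp6 among 7089 genes were Prkci (Pearson r 0.921), Clic5 (0.913) and Podxl (0.902), given as a description. Those closest to Dusp10 were Fgfbp1 (0.868) and Itgb5 (0.856), to Dusp5 Pdlim7 (0.889) and Prdx4 (0.874), to Dusp16 Ubr2 (0.881) and Ptrhd1 (0.862), and to Dusp1 Ywhah (0.863) and Rassf1 (0.843). Dusp14 ran closest to Lims1 (0.811) and Dusp8 to Vopp1 (0.797) and the immediate-early gene Ier2 (0.787).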

How the data were processed

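Whole-number counts per gene were deposited by the authors as UMI counts per barcode for 4 Drop-seq libraries and read counts for 2 bulk libraries. STAR and HTSeq are named in the submitters' processing notes. The genome build and their versions are not given in the sources used here. Among the deposited bulk counts, HTSeq rows that name no gene (no feature, ambiguous, not unique) held 6.14%, 3.87% and 14.7% of the reads of dissociated cells. In whole glomeruli they held 9.68%, 3.77% and 9.47%, and these rows were left out.

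Cells with at least 300 genes and at most 20% mitochondrial UMIs were clustered (scanpy 1.11.5, 2000 variable genes, 30 components, Leiden resolution 1) without the 9 genes and the 4 lists. A cluster took the type with most markers among its 10 leading genes and, in a tie, the one with the highest mean marker level relative to the cluster where each marker was highest. The 9 podocyte-like clusters had 0 markers among their leading genes and rest on that level. No doublet caller was run. Cells with at least 3 UMIs of markers of each of 2 types (5.43% of podocyte-like to 27.7% of tubular-like cells) were removed in an alternative. UMIs were summed per library and type and tested with edgeR 4.0.16 (TMM, filterByExpr, quasi-likelihood test, library as a block, Benjamini-Hochberg adjusted p under 0.05). Every library holds every type, so the block pairs sums of 1 library. The test was checked on simulated counts. Bulk values are TMM-scaled CPM with a prior count of 2.

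The 9 genes and the lists were chosen with earlier results of these data known. All 9 genes are named, with up to 4 per list and direction in the same direction in every library, and the genes with the highest r. The text names fewer of them. DESeq2 1.42.0, other scalings, filters and left-out libraries were the alternatives.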

Additional observations from a re-analysis of the deposited data

Results flagged for a closer look

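Dusp2 and Dusp5 stood out in the immune-like cells, which were too few for the comparisons, with 53 cells led by Igkc, Cd74 and H2-Aa. Dusp2 was at 127.7 CPM there, from 6 UMIs in 5 cells (95% Poisson interval 46.9 to 278, counting error only), where the highest mean of the tested types was 8.06 CPM. Dusp5 was at 319.4 CPM, from 15 UMIs in 11 cells (178.8 to 526.8), where the highest mean of the tested types was 78.6 CPM. Both were noted because the signal lay in cells outside the tested types. Of 53 sets of 4 libraries examined for a single library far from the rest, 0 met the limit, which chance meets in about 1 of 20.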

How the results depend on the processing

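Over 561 alternatives for single genes, 480 kept the result. For tested folds this means the same direction and side of the threshold, and for bulk folds a value inside the main counting interval. A gene that failed the filter on low counts in an alternative gave no value and was not counted. At most 10% mitochondrial UMIs, where 4 of the 7 genes passed the filter, left 3 calls for the endothelial-like, 1 for the mural-like and 1 for the tubular-like type, and keeping low-count genes left 1 for the mural-like type. With no replicate block, 4 neighbouring pairs were called, and the other counts stayed within 1.5 times. Leaving out 1 library at a time gave 3 to 5 calls for the endothelial-like and 1 to 3 for the mural-like type, the lowest without library 3. The Dusp1 share in podocyte-like cells was 51.1% thinned to 800 UMIs and 57.8% not thinned, and its difference with Fos 35.8 and 46.3 points. Cells with at least 500 genes gave no parietal epithelial-like cluster. There 228 cells were named immune-like, against 53 in the main setting, although 9637 cells were kept in place of 13993. The parietal epithelial-like and immune-like names thus depend on that limit, and folds in that setting are over the types left. In bulk, leaving out TMM kept 6 genes higher and 1 lower past 2-fold, with log2 folds of 4.69 for Dusp14 and 1.18 for Dusp1.

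These folds took the opposite sign, among them the called values of Dusp14 in mural-like cells, Dusp10 in parietal epithelial-like cells and Dusp1 between parietal epithelial-like and tubular-like cells, and the cause was not tested. Against all other cells summed, the values were -0.60 for Dusp6 in endothelial-like cells, -0.16 for Dusp1 and -0.19 for Dusp14 in mural-like cells, and -0.036 for Dusp10 and -0.014 for Dusp8 in parietal epithelial-like cells. With low-count genes kept they were 0.23 for Dusp16 in podocyte-like, -0.012 for Dusp1 in mural-like and -0.22 for Dusp5 in parietal epithelial-like cells. In that setting every podocyte-like fold was above its main value by a similar amount. Dusp8 in endothelial-like cells was 0.045 with at least 500 genes per cell. In parietal epithelial-like cells Dusp5 was -0.24 without cells with markers of 2 types and -0.039 at Leiden resolution 0.6, where Dusp14 was 0.00098. Dusp1 in the podocyte-led endothelial-like subcluster was 0.037 with DESeq2 size factors. Leaving out 1 library gave -0.50 to 0.042 for Dusp16 in podocyte-like, -0.22 to 0.042 for Dusp8 in endothelial-like, -0.86 to 0.025 for Dusp10 in mural-like, -0.85 to 1.23 for Dusp16 and -0.16 to 0.25 for Dusp5 in parietal epithelial-like cells, -0.032 to 0.65 for Dusp1 in parietal epithelial-like over tubular-like cells, and -0.072 to 0.094 for Dusp1 in the podocyte-led subcluster.

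Depth limits Dusp2, Dusp4 and the 4 to 24 UMIs of Dusp5, Dusp6, Dusp8, Dusp10 and Dusp16 in mural-like cells.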
